A study of Mus musculus with 12 samples.

Results

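Tnf, Lta and Ltb are the genes of tumour necrosis factor (TNF), lymphotoxin-α and lymphotoxin-β, and they lie side by side in the mouse MHC region. They were taken by symbol from the 12 expression files of a study of marginal zone B cells, which sit at the border of the splenic marginal sinus and respond early to blood-borne antigens. They are 3 of 24346 symbols in the files, and all 3 were among the 10797 genes tested. The mice were wild type or Trpm5-/-, without the calcium-activated cation channel TRPM5. Cells were cultured for 4 h unstimulated, with 10 µg/mL of lipopolysaccharide (LPS) or with 10 µg/mL of an antibody to IgM (anti-IgM). LPS is a bacterial ligand of the receptor TLR4, and anti-IgM crosslinks the B cell receptor. Each of the 6 groups had 2 libraries. The labels do not say whether these came from separate animals or cultures, so every p-value measures the spread between libraries, which may be technical.

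All 3 proteins are trimeric ligands of the TNF superfamily. TNF and the secreted homotrimer of lymphotoxin-α bind the receptors TNFR1 and TNFR2, encoded by Tnfrsf1a and Tnfrsf1b. Lymphotoxin-β anchors lymphotoxin-α in the membrane as a heterotrimer that binds the lymphotoxin-β receptor, encoded by Ltbr, on stromal and myeloid cells. In the spleen, lymphotoxin made by B cells is known for keeping follicular dendritic cells and the marginal zone in place, and TNF is an early inflammatory cytokine whose transcription and mRNA stability are both regulated.

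In the mm10 build, Ltb occupies chr17:35194439-35196320 on the plus strand, Tnf chr17:35199381-35202007 on the minus strand and Lta chr17:35203165-35205351 on the minus strand, per the GENCODE annotation. The 3 genes fit in 10913 bases. Tnf and Ltb point towards each other with 3060 bases between their ends, and 1157 bases separate the end of Lta from the start of Tnf. The annotated miRNA genes Mir6973a and Mir6974 lie within Ltb and Lta, on the strand of each. Mir6973a was listed at 0 to 9096 FPKM, above 0 in 5 of 12 libraries, and Mir6974 at 0 to 1197, above 0 in 2. How reads in those stretches were divided is not stated. RefSeq's start regions (GRCm38.p6, the assembly that mm10 names) are shown because Tnf and Lta rose together with LPS while Ltb fell. Capitals mark TATAAA in Tnf and Lta and, in Tnf and Ltb, 1 match to the pattern of an NF-kB site. The Tnf stretch is chr17:35202008-35202257 (minus strand), the 250 bases before the start. The Lta stretch is chr17:35205501-35205530 (minus strand), 30 bases that end 150 bases before the start in the RefSeq table. The first 23 of them lie upstream of every annotated Lta start, and a longer predicted model of the gene starts just after those. The Ltb stretch is chr17:35194257-35194438 (plus strand), 182 bases that end 69 bases before the RefSeq start.
Tnf: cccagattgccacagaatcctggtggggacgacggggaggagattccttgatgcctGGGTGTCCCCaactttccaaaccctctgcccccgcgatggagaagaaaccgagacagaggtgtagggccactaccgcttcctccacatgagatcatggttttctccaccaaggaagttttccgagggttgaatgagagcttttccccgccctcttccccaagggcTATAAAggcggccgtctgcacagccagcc
Lta: gtgcagaagtgaTATAAAccatcactcttc
Ltb: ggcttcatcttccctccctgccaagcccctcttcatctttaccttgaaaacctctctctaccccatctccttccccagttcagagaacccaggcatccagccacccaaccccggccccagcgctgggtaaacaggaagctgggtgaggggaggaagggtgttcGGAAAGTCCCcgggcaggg

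Both strands of each RefSeq start region (250 bases before to 50 bases after the start) were searched for 6 motifs, counting overlapping matches. The NF-kB pattern, GGG and CC with any 5 bases between them, matched 3 times in Tnf, 2 times in Lta and 5 times in Ltb. It was also found in 50.4% of all 27025 RefSeq start regions of that length. The matches are not separate sites: in Tnf GGGTGTCCCC counted on both strands, and the remaining match, GGGACTAGCC, lay after the start. Those in Lta overlapped at 76 to 66 bases before the start. In Ltb the matches other than GGAAAGTCCC overlapped at 40 to 29 bases before the start. In Tnf the match GGGTGTCCCC lay 194 to 185 bases before the start, and in Ltb the match GGAAAGTCCC lay 87 to 78 bases before it. TATAAA was found in 14.2% of start regions, 29 to 24 bases before the start of Tnf, 167 to 162 bases before the table's start of Lta (closer to that of the longer model), and not in the Ltb window. GGAAA, the core of an NFAT site, matched 3 times in Tnf, 3 times in Lta and 1 time in Ltb, where it overlapped the NF-kB match, against 61.3% of start regions with a match. GGGCGG, a GC box bound by SP1, matched 1 time in Tnf and not in the other two windows (35.9% of start regions). The AP-1 motif TGAGTCA (5.17% of start regions) and the cAMP-response motif TGACGTCA (1.88%) were in none of the 3 windows.

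The 3 mRNAs also differed at their 3′ ends, where copies of ATTTA are bound by proteins such as tristetraprolin (Zfp36). The 764 bases of the Tnf 3′UTR held 8 copies, the 572 bases of Lta held 3, and the 156 bases of Ltb held 0. The stretch shown is bases 437 to 466 of the Tnf 3′UTR, and capitals mark 9 bases in which a pair of copies overlaps.
Tnf: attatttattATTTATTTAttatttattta
That overlapping pair occurred 2 times in Tnf, 1 time in Lta and 0 times in Ltb. The other occurrence in Tnf is the last 9 bases of the stretch shown, in lower case. Among annotated 3′UTRs 0.8 to 1.25 times as long, 2.90% of 2620 like Tnf, 2.81% of 2276 like Lta and 0.980% of 1326 like Ltb held it.

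The deposited values were read as FPKM, fragments per kilobase of transcript on a scale common to the libraries. They summed to 563461 to 805373 per library, while median ratios between libraries were 1.008 to 1.015. Trpm5 itself was listed at 0.0196 to 0.434 FPKM in the 6 wild-type libraries and at 0 to 0.0303 in the 6 Trpm5-/- libraries. These ranges overlapped, and no source used here says which part of the gene was deleted, so at this level Trpm5 was a weak check of the labels. All 9 marginal zone B markers were tested and their summed level was 436 to 729 FPKM, while that of 9 pan-B markers was 1984 to 6225 FPKM. T cell markers summed to 2.52 to 10.1 FPKM, with Thy1 at 0 in all libraries and Cd3e at 0.19 at most. Their sum was 2.52 to 2.80 FPKM in wild-type cells without stimulus and 9.87 to 9.88 with anti-IgM. In Trpm5-/- cells it was 4.61 to 5.55 and 10.0 to 10.1. Of 3 tested, Cd5 and Il7r were called higher with anti-IgM in both genotypes (48.6% and 49.9% of tested genes called), and 0 were called between genotypes. Of 13 macrophage and monocyte markers 7 were tested, and Fcgr1 was at 0 in all libraries. The 13 summed to 35.7 to 45.1 FPKM in wild-type cells without stimulus, 19.6 to 23.9 with LPS and 20.3 to 22.3 with anti-IgM. In Trpm5-/- cells the sums were 30.4 to 31.9, 26.5 to 27.2 and 24.2 to 26.6 FPKM. Of the 7 tested, 3 were called lower with LPS and 4 with anti-IgM in wild-type cells (69.4% and 48.6% of tested genes called). In Trpm5-/- cells 1 was with each (68.7% and 49.9%), and 0 rose. Between genotypes Vcam1 was called lower in Trpm5-/- cells without stimulus (6.11% called), and Lyz2 higher with LPS (3.59%) and with anti-IgM (3.83%). Averaged over the conditions 2 of these markers were called higher and 2 lower (16.0%). The part of macrophages and monocytes in the Tnf values was not tested. NK markers summed to 0.315 to 3.40 FPKM and neutrophil markers to 0 to 2.78 FPKM. Of 7 dendritic cell markers, 5 stayed under 1 FPKM in all libraries, and the other two, Flt3 and Zbtb46, moved with LPS as given below.

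Ltb was by far the most abundant of the 3 mRNAs in unstimulated cells. Wild-type libraries held Ltb at 281 and 286 FPKM (284 ± 3.20, SD, n = 2), Lta at 5.84 and 5.73 FPKM (5.79 ± 0.0764) and Tnf at 1.66 and 1.19 FPKM (1.42 ± 0.330). By level, Ltb stood at rank 292 of the 10797 tested genes there, Lta at rank 7713 and Tnf at rank 9867. The deposited FPKM moved in whole steps that gave fragment numbers for 2 of the genes. Ltb rested on 233 to 3056 fragments per library and Lta on 15 to 290. Tnf, which has more than 1 annotated transcript, gave no whole steps, and its values correspond to about 19 to 186 fragments.

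**Figure D1:**
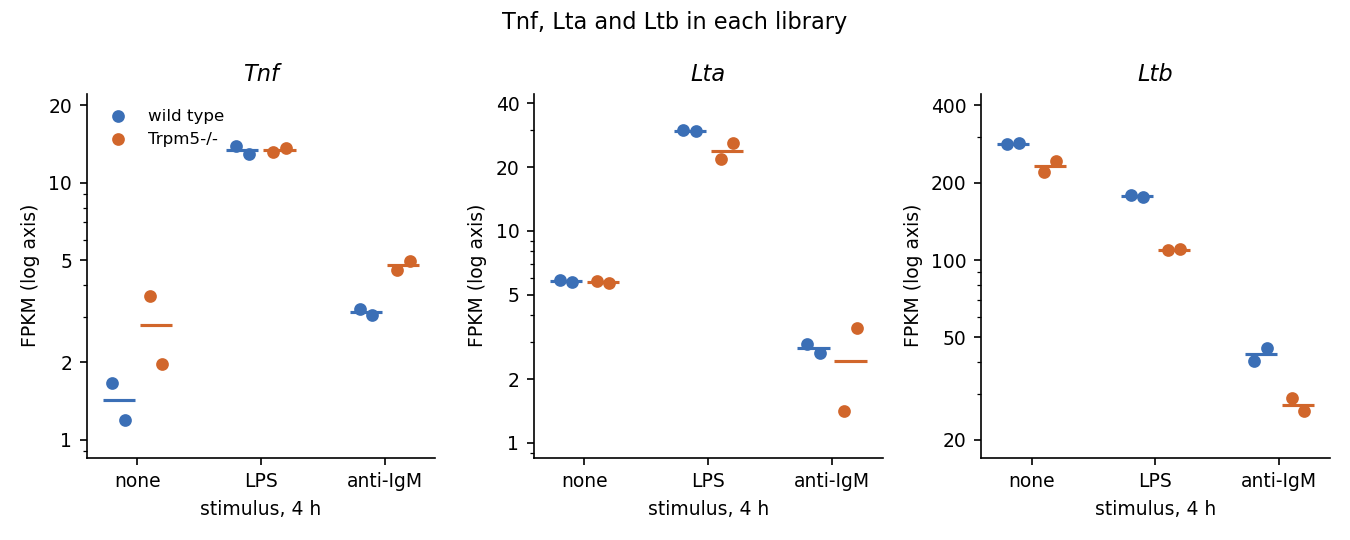
FPKM of Tnf, Lta and Ltb in each of the 12 libraries (log axis), by stimulus and genotype; each point is 1 library and each line the mean of 2. Tnf and Lta were highest with LPS in both genotypes, and Ltb was highest without stimulus and lowest with anti-IgM, with each Trpm5-/- pair below the wild-type pair.

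LPS raised Tnf and Lta and lowered Ltb, in both genotypes. Changes are given on the log2(FPKM + 1) scale, which understates those of low genes, with standard errors from limma fitted to all tested genes. A gene was called at an adjusted p under 0.05. In wild-type cells Tnf went from 1.66 and 1.19 FPKM to 13.9 and 12.9, an increase of 2.58 ± 0.19 (limma adjusted p = 7.58e-07). Lta went from 5.84 and 5.73 FPKM to 29.8 and 29.6, an increase of 2.18 ± 0.23 (limma adjusted p = 1.09e-05). Both stimulated libraries stood far above both unstimulated ones for each gene, and the means rose 9.41-fold and 5.13-fold. Ltb went from 281 and 286 FPKM to 179 and 175, and fell by 0.68 ± 0.07 (limma adjusted p = 1.53e-05). All 3 were called where 69.4% of tested genes were, so a call by itself sets them little apart. By size of increase Tnf ranked 81 and Lta 168 among the 5306 tested genes that were higher, whereas the fall of Ltb ranked 2652 among 5477 that were lower. Dendritic cell markers moved in the same comparison: their sum was 9.21 to 9.79 FPKM without stimulus and 71.6 to 76.7 with LPS, and both tested ones, Flt3 and Zbtb46, rose (median 2.29). Their part in the rise of Tnf and Lta was not tested. The size of the Ltb fall depended on scaling: with quantile normalization it was -1.24 and with division by the FPKM sum -1.07.

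The same directions were measured in Trpm5-/- cells. Tnf rose from 3.62 and 1.97 FPKM to 13.1 and 13.6 (1.95 ± 0.19, limma adjusted p = 6.77e-06), and Lta from 5.80 and 5.70 to 21.8 and 26.1 (1.88 ± 0.23, limma adjusted p = 3.41e-05). Ltb dropped from 221 and 243 FPKM to 109.3 and 109.9 (-1.07 ± 0.07, limma adjusted p = 4.33e-07), a 2.12-fold lower mean. Here 68.7% of tested genes were called. Dendritic cell markers summed to 7.63 to 8.45 FPKM without stimulus and 70.8 to 71.1 with LPS.

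Anti-IgM separated the 3 genes in another way: Tnf rose a little, Lta fell and Ltb fell steeply. In wild-type cells Tnf reached 3.24 and 3.06 FPKM, an increase of 0.78 ± 0.19 (limma adjusted p = 0.00695). Lta went down to 2.93 and 2.66 FPKM and fell by 0.84 ± 0.23 (limma adjusted p = 0.0118). Ltb went down to 40.4 and 45.5 FPKM, 6.61-fold below the unstimulated mean, a change of -2.70 ± 0.07 (limma adjusted p = 1.55e-08). The fall of Ltb ranked 38 among the 5231 tested genes that were lower, and 48.6% of tested genes were called in either direction. The Tnf call was lost without wild-type unstimulated replicate 2 (0.64), and the Lta call was lost without wild-type anti-IgM replicate 2 or wild-type unstimulated replicate 1, with values of -0.89 to -0.79 over all libraries left out.

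In Trpm5-/- cells anti-IgM left Tnf at 4.57 and 4.97 FPKM, Lta at 1.41 and 3.46, and Ltb at 28.9 and 25.9. Tnf rose by 0.64 ± 0.19 (limma adjusted p = 0.0193), Lta fell by 1.04 ± 0.23 (limma adjusted p = 0.00355) and Ltb fell by 3.04 ± 0.07 (limma adjusted p = 5.87e-09, 8.47-fold lower mean). In this comparison 49.9% of tested genes were called. The lower Lta library rested on 15 fragments, for which the 95% Poisson interval is 8.40 to 24.7 fragments. The other rested on 47 (34.5 to 62.5), so the 2 libraries differed by more than counting error, the only error those intervals cover. The Tnf rise was not called without Trpm5-/- anti-IgM replicate 1 or 2 or without Trpm5-/- unstimulated replicate 2, with values from 0.32 to 0.96 over the libraries left out. The Lta change was -0.60 without Trpm5-/- anti-IgM replicate 1 and -1.49 without replicate 2, and was called in both. In a fit of only the compared libraries neither Tnf nor Lta was called (limma adjusted p = 0.0929 and 0.0517).

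Set directly against anti-IgM, LPS gave higher levels of all 3 genes. In wild-type cells the differences were 1.79 ± 0.19 for Tnf, 3.02 ± 0.23 for Lta and 2.02 ± 0.07 for Ltb (limma adjusted p = 2.86e-05, 2.49e-06 and 1.50e-08). That of Lta ranked 37 among the 5390 tested genes that were higher with LPS. In Trpm5-/- cells they were 1.32 for Tnf, 2.92 for Lta and 1.96 for Ltb (limma adjusted p = 0.000251, 3.05e-06 and 1.70e-08). The background of called genes was 52.7% in wild-type and 51.9% in Trpm5-/- cells. These comparisons share their libraries with the responses above and are no separate evidence.

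Between the genotypes, Ltb was the member whose difference was called: it was lower in Trpm5-/- cells under each condition. Without stimulus the 2 Trpm5-/- libraries (221 and 243 FPKM) lay below the 2 wild-type ones (281 and 286), a difference of -0.29 ± 0.07. That call was marginal (limma adjusted p = 0.0493, with 6.11% of tested genes called). It was lost in 6 alternatives that kept all libraries of the pair and in 10 of the 12 fits that left out 1 library, where the adjusted p ran from 0.0466 to 0.262 and the value from -0.36 to -0.22. With LPS the Trpm5-/- libraries held 109.3 and 109.9 FPKM and the wild-type ones 179 and 175, a difference of -0.69 ± 0.07 (limma adjusted p = 0.000924, 3.59% called). With anti-IgM they held 28.9 and 25.9 against 40.4 and 45.5 FPKM, a difference of -0.63 ± 0.07 (limma adjusted p = 0.00165, 3.83% called), which was not called in a fit of only the compared libraries (adjusted p = 0.0651). The wild-type mean was 1.22, 1.62 and 1.57 times the Trpm5-/- mean without stimulus, with LPS and with anti-IgM. Averaged over the 3 conditions the difference was -0.54 ± 0.04 (limma adjusted p = 3.67e-05, 16.0% called). An exact two-sided permutation of the genotype within conditions gave p = 0.00926, the smallest that its 216 arrangements allow (0.0231 adjusted over 5 such tests). The background shares themselves rest on few libraries: leaving out 1 took the called genes from 660 to as few as 159 without stimulus, from 388 to 158 with LPS and from 413 to 119 with anti-IgM.

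Tnf was higher in Trpm5-/- cells without stimulus and with anti-IgM, but neither difference was called. Without stimulus its 2 Trpm5-/- libraries (3.62 and 1.97 FPKM) lay above the wild-type ones (1.66 and 1.19) and differed from each other by more than the genotypes' means did (0.62 ± 0.19, limma adjusted p = 0.0974). The value was 0.94 and called without Trpm5-/- unstimulated replicate 2. With anti-IgM the pairs did not overlap either (4.57 and 4.97 against 3.24 and 3.06 FPKM, 0.48 ± 0.19, limma adjusted p = 0.213). With LPS they interleaved (13.1 and 13.6 against 13.9 and 12.9 FPKM), with a difference whose 95% interval was -0.43 to 0.43. The average over conditions was 0.36 ± 0.11 (limma adjusted p = 0.0524), just short of the threshold, and 0.47 and called without Trpm5-/- unstimulated replicate 2. The exact two-sided permutation test gave p = 0.0370 (0.0617 adjusted over the 5). Without Trpm5-/- unstimulated replicate 1 or either wild-type unstimulated library its p was 0.0833, 0.0926 and 0.0926 (0.26, 0.41 and 0.32).

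Lta did not pass the test between genotypes in any condition. Unstimulated levels were 5.80 and 5.70 FPKM in Trpm5-/- and 5.84 and 5.73 in wild-type cells, with a 95% interval of the difference of -0.52 to 0.50. With LPS the Trpm5-/- libraries (21.8 and 26.1 FPKM) were both below the wild-type ones (29.8 and 29.6), a difference of -0.31 ± 0.23 (limma adjusted p = 0.572). With anti-IgM the Trpm5-/- pair (1.41 and 3.46) enclosed the wild-type pair (2.93 and 2.66). Averaged over conditions the difference was -0.17 ± 0.13 (limma adjusted p = 0.423), and -0.32 and called without Trpm5-/- anti-IgM replicate 2. The exact two-sided permutation test gave p = 0.278.

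**Figure D2:**
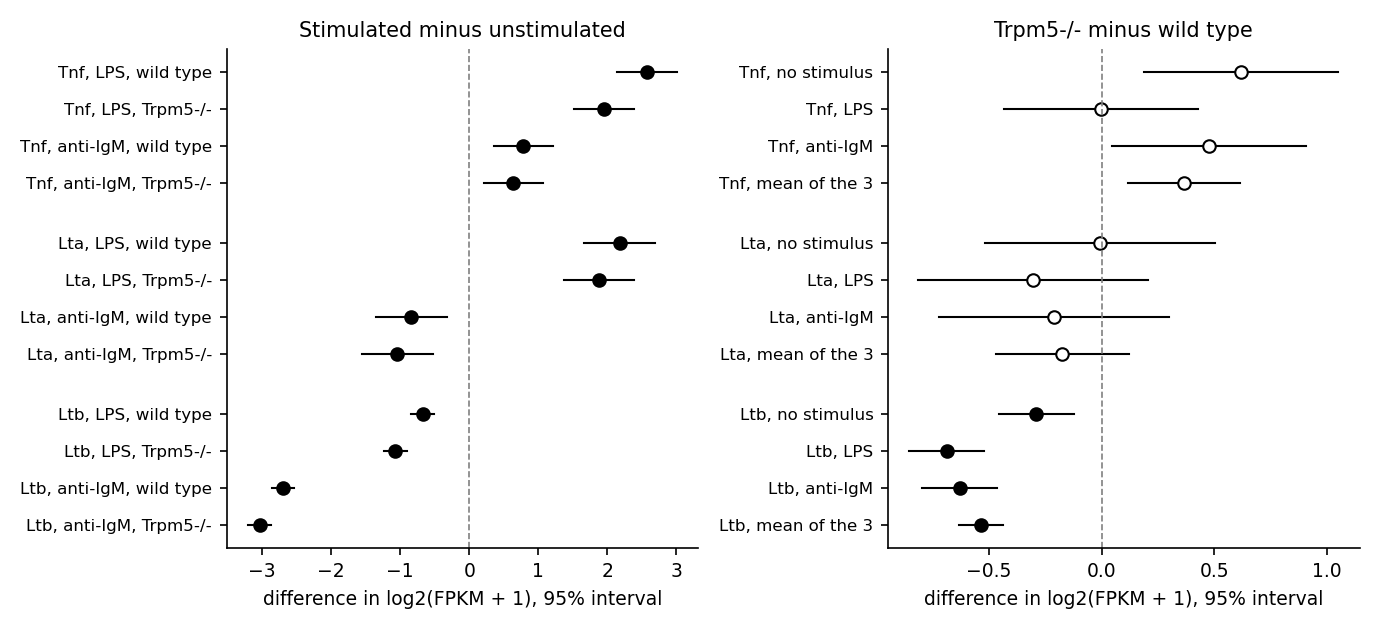
Differences in log2(FPKM + 1) for Tnf, Lta and Ltb with 95% intervals from limma: stimulated minus unstimulated (left) and Trpm5-/- minus wild type (right); filled points have an adjusted p under 0.05. All 12 responses are filled, and on the right only the 4 Ltb points are.

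None of the 3 genes responded to a stimulus differently between genotypes by the test of the difference. For Ltb the LPS response was lower by 0.40 ± 0.11 in Trpm5-/- cells (-0.40, limma adjusted p = 0.266, unadjusted 0.00365), and the anti-IgM response by 0.34 ± 0.11 (-0.34, adjusted 0.511). For Tnf the LPS response was smaller in Trpm5-/- cells (-0.62 ± 0.27, limma adjusted p = 0.476, unadjusted 0.0461), a value of -0.30 without Trpm5-/- unstimulated replicate 1 and -0.94 without replicate 2. The other 6 differences of responses, which include those of LPS against anti-IgM, had limma adjusted p-values from 0.589 to 0.954. Few genes of any kind were called in these tests: 0.102% for LPS, 0.0278% for anti-IgM and 0.111% for LPS against anti-IgM.

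Ordered by level, Tnf ran from wild-type unstimulated through Trpm5-/- unstimulated, wild-type anti-IgM and Trpm5-/- anti-IgM to the 2 LPS groups. Of these neighbours, Trpm5-/- unstimulated overlapped wild-type anti-IgM, and the LPS groups overlapped each other. Lta ran from the 2 anti-IgM groups, which overlapped, through the 2 unstimulated groups, which overlapped, to Trpm5-/- LPS and then wild-type LPS. For Ltb the order was Trpm5-/- anti-IgM, wild-type anti-IgM, Trpm5-/- LPS, wild-type LPS, Trpm5-/- unstimulated and wild-type unstimulated, and no library of one group reached into the next. These orders are descriptions, and how often groups of other genes separate is not given here.

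Because lymphotoxin-α is shared between the secreted homotrimer and the membrane heterotrimer, the ratio of the mRNAs within each library was also measured, on FPKM, which is scaled by length. The Ltb to Lta ratio in wild-type cells was 48.2 and 49.9 without stimulus, 6.01 and 5.93 with LPS, and 13.8 and 17.1 with anti-IgM. In Trpm5-/- cells it was 38.1 and 42.7, 5.02 and 4.22, and 20.6 and 7.47. Ltb mRNA thus stayed above Lta mRNA in all 12 libraries, by the smallest margin with LPS. The genotype difference in this ratio averaged -0.32 on the log2 scale (exact two-sided permutation p = 0.194, 0.243 adjusted over the 5). Without Trpm5-/- anti-IgM replicate 1 it was -0.57 with an exact p of 0.00926.

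The Tnf to Lta ratio was higher in Trpm5-/- cells under each condition. Wild-type values were 0.284 and 0.208 without stimulus, 0.465 and 0.437 with LPS, and 1.10 and 1.15 with anti-IgM. Trpm5-/- values were 0.625 and 0.346, 0.604 and 0.521, and 3.25 and 1.44. The pairs did not overlap in any condition. How often pairs of 2 libraries separate for other genes is not given here, so that separation alone is a description. The average difference was 0.73 on the log2 scale, a factor of 1.66 (exact two-sided permutation p = 0.00926, the smallest possible, and 0.0231 adjusted over the 5). The highest ratio, 3.25, comes from the library with 15 Lta fragments. The exact permutation p was 0.0556 without either wild-type anti-IgM library (0.72 and 0.74).

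**Figure D3:**
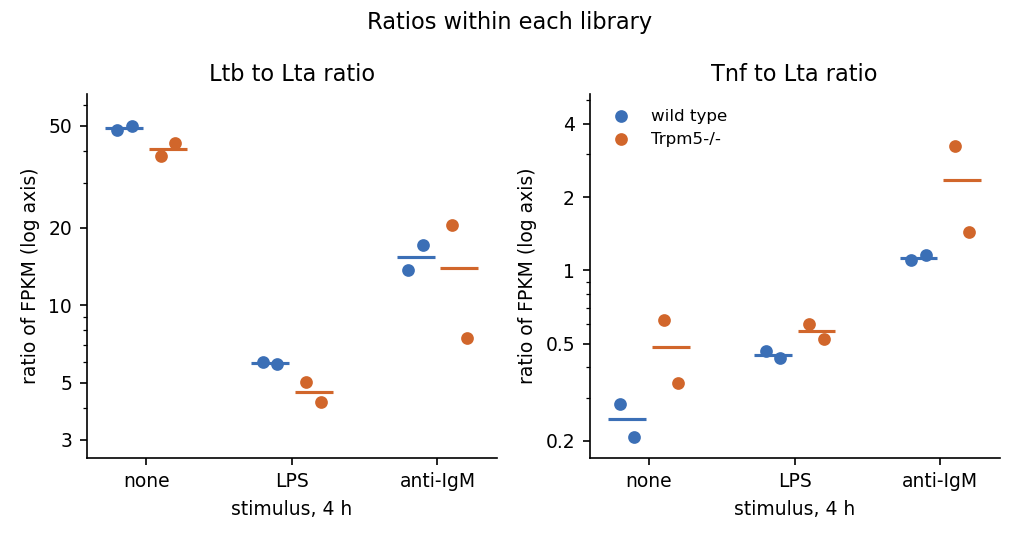
Ratio of Ltb to Lta and of Tnf to Lta within each library (log axes), by stimulus and genotype; points are libraries and lines the means of 2. The Ltb to Lta ratio was lowest with LPS (4.22 to 6.01), and the Tnf to Lta ratio was highest with anti-IgM, with each Trpm5-/- pair above the wild-type pair.

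The summed level of B cell markers moved along with Ltb, though single markers did not all fall. The 9 pan-B markers, which include Cd79a and Ms4a1, summed to 5972 and 6225 FPKM in unstimulated wild-type libraries, 3851 to 3914 with LPS and 2277 to 2284 with anti-IgM. The mean sum was thus 1.57-fold lower with LPS and 2.67-fold lower with anti-IgM, where Ltb was 1.60-fold and 6.61-fold lower. By single marker, 5 of the 9 fell and 1 rose with LPS in wild-type cells (median -0.36, 69.4% of all tested genes called). With anti-IgM 8 fell and 0 rose there (median -1.26, 48.6%). In Trpm5-/- cells 5 fell and 2 rose with LPS (median -0.71, 68.7%), and 7 fell and 1 rose with anti-IgM (median -1.45, 49.9%). In Trpm5-/- cells the sums were about 5698, 3185 to 3247 and 1984 to 2012 FPKM, 1.07-fold, 1.21-fold and 1.14-fold below wild type, where Ltb was 1.22-fold, 1.62-fold and 1.57-fold below. Without stimulus 0 of the 9 markers were called between genotypes, where 6.11% of all tested genes were. With LPS 5 of the 9 were lower in Trpm5-/- cells and called (3.59% of all tested genes called), and with anti-IgM 3 were (3.83%). Averaged over the conditions 7 of the 9 were called lower and 0 higher (median -0.21), where 16.0% of all tested genes were called. The follicular B marker Fcer2a (CD23) was lower in Trpm5-/- cells and called in each condition, and of 9 marginal zone markers Cd9 was higher and called in each. Erythroid markers were lower too, against the same shares of all tested genes. Of 5 tested, 2 were called lower in Trpm5-/- cells with LPS (median -0.57), 1 with anti-IgM (median -0.60) and none without stimulus (median -0.13). On average over the conditions 3 of the 5 were called lower and 0 higher (median -0.46). The part of these shifts in the Ltb difference was not tested. FPKM are relative values, and in bulk RNA fewer cells of a type and less RNA per cell cannot be told apart.

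Of the 4 receptors, Tnfrsf1b, which encodes TNFR2, was the one present at a substantial level. It stood at 28.6 ± 0.383, 55.2 ± 4.62 and 40.1 ± 1.27 FPKM (SD, n = 2) in wild-type cells without stimulus, with LPS and with anti-IgM, and at 35.2 ± 1.31, 64.4 ± 0.192 and 48.9 ± 0.639 in Trpm5-/- cells. It rose by 0.92 with LPS and 0.47 with anti-IgM in wild-type cells (limma adjusted p = 6.80e-07 and 0.000240). It was higher in Trpm5-/- cells by 0.26 ± 0.04 on average (limma adjusted p = 0.00172). Tnfrsf14, which encodes HVEM, a receptor that also binds lymphotoxin-α, averaged 0.973 to 2.98 FPKM and was 0.58 ± 0.15 higher on average in Trpm5-/- cells (limma adjusted p = 0.0295), a call lost in 9 of 20 alternatives, 8 of which left out 1 library (0.46 to 0.62). Tnfrsf1a (TNFR1) and Ltbr did not pass the filter on low values, with no group mean above 0.0647 FPKM.

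Among the ligands' relatives, 3 of 15 other TNF superfamily genes passed the filter. Tnfsf4 (OX40 ligand), Tnfsf9 (4-1BB ligand) and Cd70 all rose with LPS, by 1.24, 1.39 and 1.42 in wild-type cells (limma adjusted p = 0.00136, 0.00153 and 0.00672). In that comparison 69.4% of all tested genes were called. The Cd70 call was lost without wild-type LPS replicate 2 (0.98) or wild-type unstimulated replicate 2 (1.06). None of the 3 was called with anti-IgM (48.6% of all tested genes called in wild-type cells) or between genotypes. Between genotypes 6.11%, 3.59% and 3.83% of all tested genes were called without stimulus, with LPS and with anti-IgM, and 16.0% on average. Of 7 genes for shedding and turnover of the ligands, 6 were tested. With LPS in wild-type cells 1 rose and 4 fell (median -0.48; background 69.4% called), and with anti-IgM 1 rose and 3 fell (median -0.38; background 48.6%). Adam10, a membrane-bound sheddase, fell by 0.58 with LPS and rose by 0.65 with anti-IgM in wild-type cells (limma adjusted p = 5.10e-05 and 4.87e-05). Rhbdf2, which encodes iRhom2, the partner of the TNF-releasing protease ADAM17, fell by 0.84 with LPS and by 0.97 with anti-IgM (limma adjusted p = 0.000561 and 0.000381). None of the 6 was called between genotypes, against the same shares of all tested genes.

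Transcription factors that bind the Tnf locus formed a list of 16, all tested. With LPS in wild-type cells 9 rose and 5 fell (69.4% of all tested genes called), with a median of 0.34 against -0.02 for all tested genes. Jun rose by 2.31 with LPS, Nfkb2 by 1.24 and Rel, the c-Rel subunit of NF-kB, by 1.04, while Ets1 fell by 3.06 (limma adjusted p = 1.34e-06, 8.60e-09, 6.40e-08 and 5.21e-10). With anti-IgM 5 rose and 4 fell (48.6% of all tested genes called; median 0.05 against 0.02), with Egr1 up by 1.45 and Rel by 1.30 (limma adjusted p = 1.59e-07 and 7.06e-08). Between genotypes 3, 3 and 5 of the 16 were called without stimulus, with LPS and with anti-IgM, all of them lower in Trpm5-/- cells, where 6.11%, 3.59% and 3.83% of all tested genes were called. The averaged differences were -0.68 for Egr1, -0.80 for Fos, -0.42 for Ets1 and -0.21 for Nfkb2 (limma adjusted p = 7.80e-06, 2.55e-05, 0.000136 and 0.00107).

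Regulators of Tnf mRNA decay and translation were measured as a list of 15, all tested. With LPS in wild-type cells 8 rose and 4 fell (median 0.37), where 69.4% of all tested genes were called. With anti-IgM 7 rose and 1 fell (median 0.34), where 48.6% were, so the anti-IgM count is near the background. The ATTTA-binding factors moved in different directions: with LPS Zfp36 fell by 0.83 and Zfp36l2 by 1.75, while Zfp36l1 and Elavl1 (HuR) rose by 0.91 and 0.92 (limma adjusted p = 2.59e-06, 6.48e-08, 8.79e-07 and 8.94e-07). Averaged over conditions 3 were higher and 3 lower in Trpm5-/- cells, with 16.0% of all tested genes called. Zfp36 and Zfp36l1 were lower by this measure (-0.32 ± 0.04 and -0.38 ± 0.04, limma adjusted p = 0.000853 and 0.000215). Zc3h12d and Zc3h12c, of the Regnase family of RNA-binding proteins, were higher by 0.86 ± 0.08 and 0.33 ± 0.06 (limma adjusted p = 8.73e-05 and 0.00316).

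Downstream of the receptors, 25 members of the receptor complexes were listed and all tested. With LPS in wild-type cells 10 rose and 7 fell (median 0.03), a number close to the background of 69.4% called. Traf1 was up by 3.02 and Tnfaip3 (A20, an inhibitor of NF-kB signalling) by 2.89, and Traf5 was down (-2.49) (limma adjusted p = 1.02e-09, 2.57e-10 and 6.62e-09). With anti-IgM 5 rose and 8 fell (median -0.05), also near the background of 48.6%, with Tnfaip3 up by 0.80 and Birc3 (cIAP2) at -0.75 (limma adjusted p = 1.92e-06 and 5.34e-07). Averaged over conditions 2 were higher and 6 lower in Trpm5-/- cells (16.0% of all tested genes called), among them Tnfaip3 (-0.28 ± 0.03) and Birc2 (-0.30 ± 0.05; limma adjusted p = 0.000500 and 0.00274). Of 14 genes known as targets of these receptors 6 were tested, and 5 rose with LPS and none fell, with a median of 2.14 (background 69.4% called). Icam1, an adhesion molecule, rose by 2.87, Nfkbia (IκBα) by 2.15 and Cxcl10 by 3.64 (limma adjusted p = 7.03e-10, 5.21e-10 and 1.11e-05). LPS itself is also known to induce these genes. Averaged over conditions Icam1 was lower in Trpm5-/- cells (-0.28 ± 0.04, limma adjusted p = 0.00179), as was Nfkbia (-0.16 ± 0.03, limma adjusted p = 0.00535).

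The genes around Tnf were read to see whether the whole region moved with the members. Of 14 listed MHC class III neighbours 12 were in the files and 9 were tested. In wild-type cells 3 rose and 3 fell with LPS (median 0.08), and 2 rose and 2 fell with anti-IgM (median -0.13), close to the backgrounds of 69.4% and 48.6% called, with no change as large as that of Tnf or Lta with LPS or of Ltb with anti-IgM. The largest called neighbour change with LPS was that of Ddx39b, an RNA helicase gene (0.82 ± 0.08, limma adjusted p = 6.90e-06). Nfkbil1, the tested gene next to Lta, fell by 0.62 ± 0.13 (limma adjusted p = 0.00146), but was at -0.22 and not called with quantile normalization. Lst1, the neighbour of Ltb on its other side, was not called (0.70 ± 0.39, limma adjusted p = 0.127). Between genotypes 0 of the 9 were called under any condition or on average. Of all tested genes 6.11% were called without stimulus, 3.59% with LPS, 3.83% with anti-IgM and 16.0% on average. A count of 0 among 9 is near those shares and says little about the region. Lst1 had the lowest values (-0.69 ± 0.22 on average, limma adjusted p = 0.0616), with an average larger in size than that of Ltb (-0.54). Nfkbil1 was at -0.23 ± 0.07 on average (limma adjusted p = 0.0563). The Ltb difference between genotypes was the only call among the members and these 9 neighbours.

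**Figure D4:**
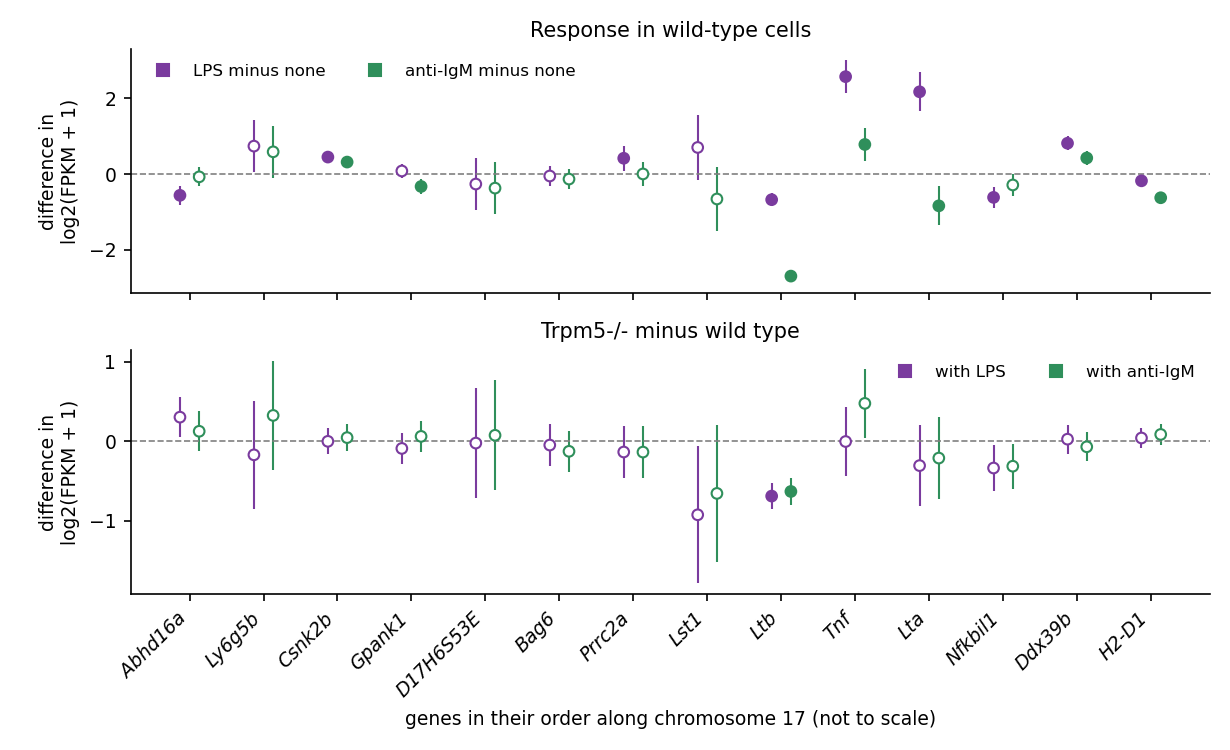
Differences in log2(FPKM + 1) with 95% intervals for the 14 tested protein-coding genes within 100 kb of the members, in chromosomal order, for responses in wild-type cells (top) and Trpm5-/- minus wild type (bottom); filled points have an adjusted p under 0.05. In the top panel Tnf and Lta with LPS and Ltb with anti-IgM lie farther from 0 than any neighbour, and only Ltb is filled in the bottom panel.

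Across the 12 libraries the 3 neighbours did not share 1 pattern. Pearson's r of log2(FPKM + 1) was 0.76 between Tnf and Lta, 0.50 between Lta and Ltb and -0.12 between Tnf and Ltb, as a description of libraries that share their conditions. The genes whose pattern was most like Tnf were Psmc6, Il15ra, Polr2b, Slmo2 and Clint1 (r from 0.986 to 0.988). Those most like Lta were Hivep1, Skil, Birc3, Nid1 and Il1b (r from 0.985 to 0.988), and those most like Ltb were Jak1, Apobec3, Prkd2, 1700021K19Rik and Mkl1 (r from 0.986 to 0.994).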

How the data were processed

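Each library's deposited file lists a number for every gene symbol. These numbers were read as FPKM made by the authors with Cufflinks 2.2.1, a tool listed in the submitters' processing notes, and low values rise in steps set by the gene and the library. Bowtie2 2.2.3, TopHat2 2.0.13, SAMtools 0.1.19 and the mm10 build are in the same notes. Full-length cDNA was made with a SMART-Seq HT kit, per the labels' protocols, while no source used here gives the annotation or the strand setting. Median ratios between libraries of 1.008 to 1.015 show values already scaled, and no scaling was added. Genes that reached 1 FPKM in 2 or more libraries were fitted as log2(FPKM + 1) with limma 3.58.1 (R 4.3.3): 6 group means, a trended prior, 6 residual degrees of freedom, 13 comparisons and Benjamini-Hochberg adjustment over all tested genes. Single values were also tested by exact permutation (Python 3.11.15), and the fit was tested on simulated data.

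The members and gene lists were chosen with earlier results of these data known. From each list, up to 4 called genes per comparison by smallest p could be named, with any tested receptor or neighbour, and the 5 genes most correlated with each member. The overlapping ATTTA search was added after the values were seen. Over all libraries, summed markers were 957 to 3332 FPKM for follicular B cells and 100 to 681 for erythroid cells. Alternatives were another pseudocount, filters, scalings, priors, sample sets, a replicate block and each library left out. Lta and Ltb fragment numbers were whole to within 0.01.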

Additional observations from a re-analysis of the deposited data

How the results depend on the processing

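For Tnf, Lta and Ltb no result changed direction past its threshold under any alternative run. The marginal Ltb difference between genotypes without stimulus was no longer called with pseudocount 0.1 (-0.29), no filter (-0.29), division by the FPKM sum (-0.30), no trend (-0.29) or only the compared libraries (-0.29), where the adjusted p ran from 0.0548 to 0.137, and ran from -0.36 to -0.22 with 1 library left out. Fitted on only the compared libraries, the calls were also lost for Ltb between genotypes with anti-IgM (-0.63, adjusted p = 0.0651), and in Trpm5-/- cells with anti-IgM for Tnf (0.64) and Lta (-1.04). Division by the FPKM sum ended that Tnf call too (0.49). The averaged Tnf difference was called with pseudocount 0.1 (0.49), quantile normalization (0.39) and a robust prior (0.36). The averaged Ltb to Lta difference passed the exact permutation test on FPKM + 1 (-0.36, p = 0.0370).

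With 1 library left out, the genotype difference ran from 0.30 to 0.94 for Tnf without stimulus, from 0.26 to 0.47 for Tnf and from -0.32 to -0.026 for Lta on average, in the fit and in the permutation test alike. The averaged log2 ratio ran from -0.57 to -0.079 for Ltb to Lta and from 0.53 to 0.93 for Tnf to Lta. The anti-IgM response ran from 0.64 to 0.92 for Tnf and from -0.89 to -0.79 for Lta in wild-type cells, and from 0.32 to 0.96 for Tnf in Trpm5-/- cells.

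Division by the FPKM sum moved the median LPS response of all genes to -0.35 in wild-type and -0.36 in Trpm5-/- cells, and the Ltb response lay -0.72 and -1.12 from that median. Of 216 results for other named genes, 7 recomputed values reversed, all under another scaling. Under quantile normalization the LPS response of Csnk2b became -0.079 in wild-type and -0.17 in Trpm5-/- cells, that of Bag6 0.31 in Trpm5-/- cells, and the anti-IgM response of Nfkbia -0.011 there. Under division by the FPKM sum the LPS response became -0.30 for Gpank1 in wild-type cells, and -0.093 for Adam17 and -0.058 for Csnk2b in Trpm5-/- cells. The cause was not tested.

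Replicate numbers showed no clear pairing of the libraries, though 2 libraries a group cannot settle whether a number marks a shared animal or culture. Same-numbered deviations correlated at -0.17 to 0.20 over 15 pairs of groups, over 0.1 in 3. The libraries of 3 of the 6 groups correlated better with their own number. With a replicate block the unstimulated Ltb difference was not called (-0.29, adjusted p = 0.0620), the averaged Tnf difference was called (0.36, adjusted p = 0.0471), and the exact permutation p of Tnf became 0.0938 (0.36). Called genes changed from 11 to 6 for the interaction with LPS and from 12 to 5 for that of LPS against anti-IgM.

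The number of genes called between genotypes ran from 159 to 621 without stimulus, 158 to 365 with LPS and 119 to 461 with anti-IgM when 1 library was left out, against 660, 388 and 413. It was 51, 21 and 116 in fits of only the compared libraries, and 361 without stimulus and 248 with anti-IgM with no trend in the prior.

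Depth limits Lta and Tnf most: fragments per library were as low as 15 and about 19.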
